A study of Mus musculus with 6 samples.

Results

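Universal progenitor fibroblasts, the collagen-producing cells marked by Pi16 and Dpp4, were described here in mouse quadriceps 7 days after volumetric muscle loss. They were chosen by their raw transcript counts (unique molecular identifiers, UMIs): among barcodes with at least 500 gene UMIs, a member had a sum over Col1a1, Col1a2 and Col3a1 of at least 5, and a sum over Pi16, Dpp4, Sema3c and Cd55 of at least 2. It also had at most 3 UMIs of the scar genes Cthrc1, Postn, Adam12 and Lrrc15, at most 2 of the tendon genes Tnmd, Chad, Angptl7 and Kera, at most 2 of C1qa, C1qb and Tyrobp, and at most 1 of Pecam1 and Cdh5. The rule found 142 of 8258 barcodes, 42 in the critical library, 42 in the subcritical library and 58 in the uninjured library. These genes set who is a member, so their levels below are a description and support nothing.

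The libraries came from male wild-type C57BL/6 mice aged 2 to 3 months. One group had a critical 3 mm defect in the left quadriceps, another a subcritical 2 mm defect, and the last no injury. Muscles were dissociated with the enzymes collagenase II and dispase II, and red cells were lysed. The cells of 4 animals per group were tagged by animal, pooled, stained with barcoded antibodies and run as 1 library. The effect of injury and that of the pool or library it was run in cannot be told apart.

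Fibroblasts carrying Pi16 and Dpp4 are found in many mouse tissues, mostly in the sheath around larger vessels and in fascia, and are widely described as a reserve from which more specialised fibroblasts can form. In muscle they are a subset of the fibro-adipogenic progenitors, the resident mesenchymal cells that build matrix after injury and can turn into fat. Pi16 encodes a peptidase inhibitor, Dpp4 the surface dipeptidase CD26, Sema3c a secreted guidance factor and Cd55 a surface brake on complement. Parenchymal fibroblasts, which lie among the fibres and capillaries, are marked by other genes, such as Col15a1, Cxcl14 and Smoc2. Scar fibroblasts of a healing wound carry Cthrc1 and Postn.

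Members had medians of 1480.5, 1346 and 4317.5 gene UMIs per cell in the critical, subcritical and uninjured libraries. Their counts came to 79162, 66737 and 285968 UMIs in all. The uninjured members were thus the deepest. Over all barcodes the medians were 1608, 1286 and 1816 UMIs in the critical, subcritical and uninjured libraries, which had 7138662, 4873817 and 5681346 UMIs in 3161, 2902 and 2195 barcodes. With 1 pooled library per group there are no replicates and no test was made. Each level is given as CPM, the count scaled to the summed UMIs of a library's members, each fold is on the log2(CPM + 1) scale, and each interval is a 95% interval that covers counting error only. Hashtags traced 0, 2 and 1 members of the critical, subcritical and uninjured libraries to an animal, so animals could not be used as replicates. No barcode of a member recurred among the members of another library.

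Pi16 carried most of the marker count. It had 3284 CPM in critical, 1678 CPM in subcritical and 1553 CPM in uninjured members, and was found in 36 of 42, 33 of 42 and 47 of 58 of them. The critical level was the highest, but 5 cells held 56.5% of the Pi16 UMIs there, against 43.8% in subcritical and 48.6% in uninjured members. The median member had 3 Pi16 UMIs in the critical, 2 in the subcritical and 3 in the uninjured library. Dpp4 was found in 9, 6 and 16 members of the critical, subcritical and uninjured libraries, with 139, 165 and 126 CPM. Sema3c was found in 25, 20 and 29 members, at 543, 539 and 304 CPM. Cd55 was found in 11, 9 and 21 members, at 227, 149.8 and 203 CPM. Most members therefore carried Pi16, which was the only marker seen in 7 critical, 15 subcritical and 20 uninjured members. All 4 markers were seen together in 1 critical, 0 subcritical and 8 uninjured members, and a single marker in 10, 20 and 25. At the edge of the rule, 11, 18 and 16 members of the critical, subcritical and uninjured libraries had a marker sum of exactly 2, while 36, 37 and 31 barcodes that met every other clause had a sum of 1.

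**Figure D1:**
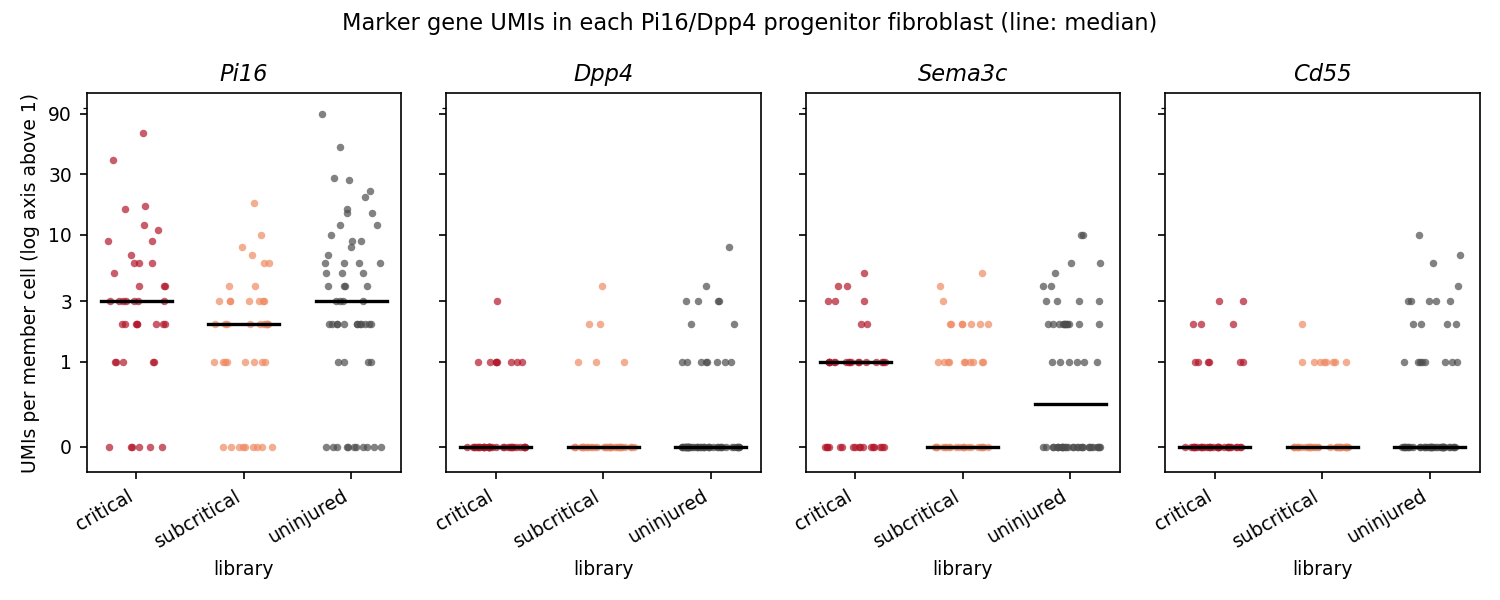
UMIs of Pi16, Dpp4, Sema3c and Cd55 in each of the 42 critical, 42 subcritical and 58 uninjured members (vertical axis, UMIs per cell, logarithmic above 1; points are cells and lines are medians). Pi16 reached 63, 18 and 90 UMIs in single cells, while the median of Dpp4 was 0 in each library.

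Fibroblast genes outside the rule were found in members to different degrees. Dcn, a collagen-binding proteoglycan, was found in 37, 39 and 57 members of the critical, subcritical and uninjured libraries, at 8388, 9665 and 15267 CPM. Pdgfra, the receptor that defines fibro-adipogenic progenitors, was sparser, in 11, 7 and 34 members, at 227, 120 and 329 CPM. Lum was found in 15, 13 and 41 members, at 366, 405 and 801 CPM. Dcn was also found in 55.4%, 62.6% and 73.6% of the barcodes that met every clause but the marker one. Pi16 was found in 4.78%, 4.63% and 9.60% of the other low-scar collagen-positive barcodes, those that met every clause but the marker one (medians of 1238, 1047 and 2884 UMIs). Among endothelial barcodes, which should lack it, the shares with Pi16 were 0.45%, 1.45% and 0.93% in the critical, subcritical and uninjured libraries (medians of 1367.5, 1295 and 2000.5 UMIs). Immune barcodes stood apart in the uninjured library alone: 23.8% of its 160 immune barcodes had a Pi16 UMI, against 0 of 790 critical ones (exact upper limit 0.466%) and 0.71% of 844 subcritical ones. Of those 38 uninjured barcodes, 36 also had S100a8, of neutrophils, and S100a8 or S100a9 was found in 1, 0 and 7 members. Whether these Pi16 UMIs came from the immune cells, from doublets or from free RNA was not tested, and the same holds for what Pi16 adds to membership in the uninjured library.

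Markers of other cells were low in members but not equally so. The 19 immune genes summed to 28, 20 and 12 UMIs in critical, subcritical and uninjured members, or 354, 300 and 42 CPM; Lyz2, of myeloid cells, had 13, 6 and 0 of them. The 10 mural genes summed to 6, 8 and 27 UMIs and the 5 red cell genes to 0 in each. The 12 glial genes had 6, 7 and 244 UMIs. The 9 tendon genes outside the rule summed to 112, 169 and 177 UMIs, mesothelial genes to 0, 0 and 2, and the 14 muscle genes to 4, 22 and 5. Their part in the differences below was not tested. For that reason comparisons are also given within identity limits, set after these values were seen: at least 3 UMIs of Pdgfra, Dcn and Lum, at most 1 of 7 mural genes and at most 1 of a set of glial genes, which 1 uninjured member exceeded. Within them were 36, 34 and 53 members and 130, 148 and 76 of the 314, 281 and 125 other low-scar barcodes.

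Members made up 4.36% (interval 3.16 to 5.84) of collagen-positive barcodes in the critical library and 5.37% (3.90 to 7.19) in the subcritical library, against 30.4% (23.9 to 37.4) in the uninjured library. Of all barcodes they made up 1.33% (0.959 to 1.79), 1.45% (1.05 to 1.95) and 2.64% (2.01 to 3.40). The 2 injured libraries were alike and the uninjured one was higher on both counts. The shares among collagen-positive barcodes depend on a denominator that was 964, 782 and 191 barcodes.

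The limit on scar genes set part of that gap. It removed 75 of 117 marker-positive barcodes in the critical library (64.1%, exact interval 54.7 to 72.8) and 58 of 100 in the subcritical library (58%, 47.7 to 67.8), against 4 of 62 in the uninjured library (6.45%). The removed barcodes had medians of 3754, 2450.5 and 8343 UMIs, deeper than the members of the same library. Their median scar sums were 17, 11 and 19, against the limit of 3. A fixed number of scar UMIs is reached sooner in a deeper barcode, but the part of depth in the removal was not tested. Without the limit, marker-positive barcodes were 12.1%, 12.8% and 32.5% of collagen-positive barcodes, and 3.70%, 3.45% and 2.82% of all barcodes in the critical, subcritical and uninjured libraries. Over all barcodes the critical share was then the highest in value, but its interval (3.07 to 4.42) overlapped that of the uninjured library (2.17 to 3.61). At the edge of the limit, 8, 10 and 0 members had exactly 3 scar UMIs, and 5, 9 and 0 marker-positive barcodes had 4. Members without any scar UMI were 14 of 42 in the critical, 17 of 42 in the subcritical and 51 of 58 in the uninjured library.

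Depth also differed between the libraries. Every collagen-positive barcode with at least 1000 UMIs was thinned at random to 1000, which kept 806, 603 and 177 barcodes and left out 158, 179 and 14 shallower ones of the critical, subcritical and uninjured libraries. At this equal depth, at least 2 marker UMIs were left in 7.44% (5.73 to 9.48), 7.79% (5.78 to 10.2) and 12.4% (7.96 to 18.2) of them, and with at most 3 scar UMIs in 4.96%, 4.31% and 12.4%. The uninjured share remained the highest of the 3, but the intervals of the first measure overlapped, and it stood at 12.4% rather than at the unthinned 32.5%. When all clauses were applied to thinned counts, members were 4.75%, 4.13% and 14.8% of collagen-positive barcodes, and 1.83% (1.32 to 2.46), 1.49% (0.985 to 2.16) and 1.17% (0.717 to 1.80) of the 2298, 1810 and 1708 barcodes with at least 1000 UMIs. The uninjured share of these deeper barcodes was the lowest in value, but all 3 intervals overlapped.

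**Figure D2:**
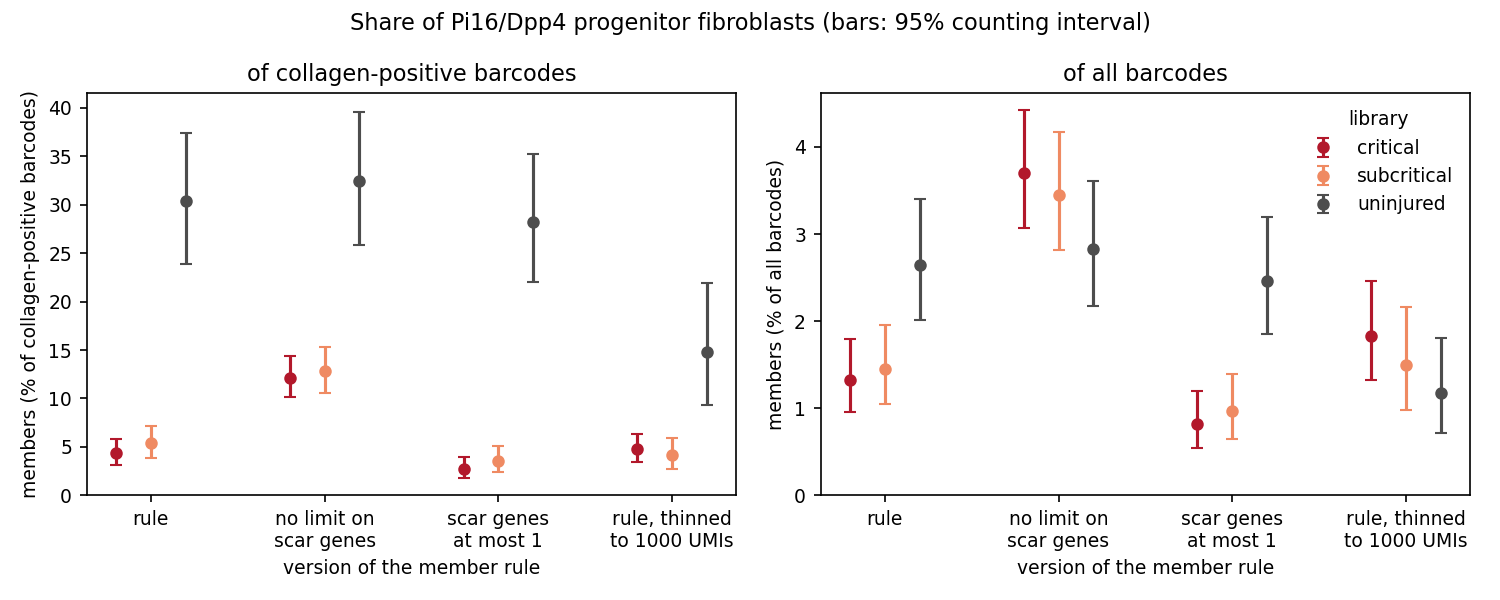
Members as a percentage of collagen-positive barcodes (left) and of all barcodes (right) under 4 versions of the rule in the critical, subcritical and uninjured libraries, the thinned version over barcodes with at least 1000 UMIs; points are shares and bars 95% exact binomial intervals for counting error. Under the rule, 4.36%, 5.37% and 30.4% of collagen-positive barcodes were members; in the right panel the intervals of the critical and uninjured libraries overlapped without the scar limit and after thinning.

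Within each library the members were set beside the other low-scar collagen-positive barcodes. A gene was measured where both sides together had at least 30 UMIs and 10 cells with one, and the genes of the rule were left out. Universal progenitor genes outside the rule were higher in members in each library. Of the list's 28 genes, 20, 18 and 24 were measured in the critical, subcritical and uninjured libraries, and 17, 16 and 18 of these were at least 2-fold higher in members, with medians of 1.70, 1.31 and 1.56. Over all measured genes, 4.62%, 4.41% and 3.14% were at least 2-fold higher, and 15.8%, 11.4% and 7.74% at least 2-fold lower. The list was drawn up with earlier results of these data known, and its genes follow the markers in many tissues, so the count describes these cells and is not independent evidence. With other scaling (median-of-ratios), 84 genes were higher and 595 lower in critical members, against 136 and 466 by total UMIs; in subcritical members 45 were higher and 388 lower, against 100 and 258.

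The list holds surface and secreted genes. Pcolce2, an enhancer of procollagen processing, had 493 CPM in critical members and 76.1 CPM in the other barcodes, 494 and 65.6 CPM in the subcritical library, and 766 and 202 CPM in the uninjured library. Its log2 folds were 2.68 (1.99 to 3.37), 2.90 (2.10 to 3.71) and 1.92 (1.56 to 2.29). Cd34, a sialomucin of stem and stromal cells, had 1099 CPM in critical members and 230.3 CPM in the others, 869 and 276 CPM in the subcritical library, and 1349.8 and 599.8 CPM in the uninjured library. Ly6a, which encodes Sca-1, a mouse marker of mesenchymal progenitors, had 3992 and 1314 CPM, 3656 and 1522 CPM, and 3042 and 1356 CPM. Fbn1, the main microfibril protein, was furthest apart in the critical library, with 3764 CPM in members and 928 CPM in the others; it had 2622 and 1148 CPM in the subcritical and 1658 and 516 CPM in the uninjured library. Members were higher than the other barcodes for each of these genes in each library.

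Over the 2107 genes measured in all 3 libraries, 20 (0.949%) were at least 2-fold higher in members in every one. They fall into a few kinds. Matrix and other secreted genes were Fbn1, Mfap5, Emilin2, Loxl1, Pcolce2, Clec3b and Itgbl1, beside the protease gene Mmp23. Surface genes were Cd34, Ly6a, Ly6c1, Cd248 (endosialin), Procr (the protein C receptor) and Ackr3 (a scavenger receptor for Cxcl12). Klf2 and Klf4 encode related transcription factors, and Anxa3 an annexin. The other three, Gfpt2, Uap1 and Ugdh, encode enzymes of the pathway that supplies sugar nucleotides for hyaluronan and other glycosaminoglycans. Gfpt2 had log2 folds of 2.12, 1.92 and 1.74 in the critical, subcritical and uninjured libraries, Uap1 of 2.07, 1.32 and 1.83, and Ugdh of 1.84, 1.40 and 2.00. Has1, which encodes a hyaluronan synthase, had 8, 5 and 7 UMIs in members and was too sparse to be measured. That these enzymes belong together was seen after their values.

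**Figure D3:**
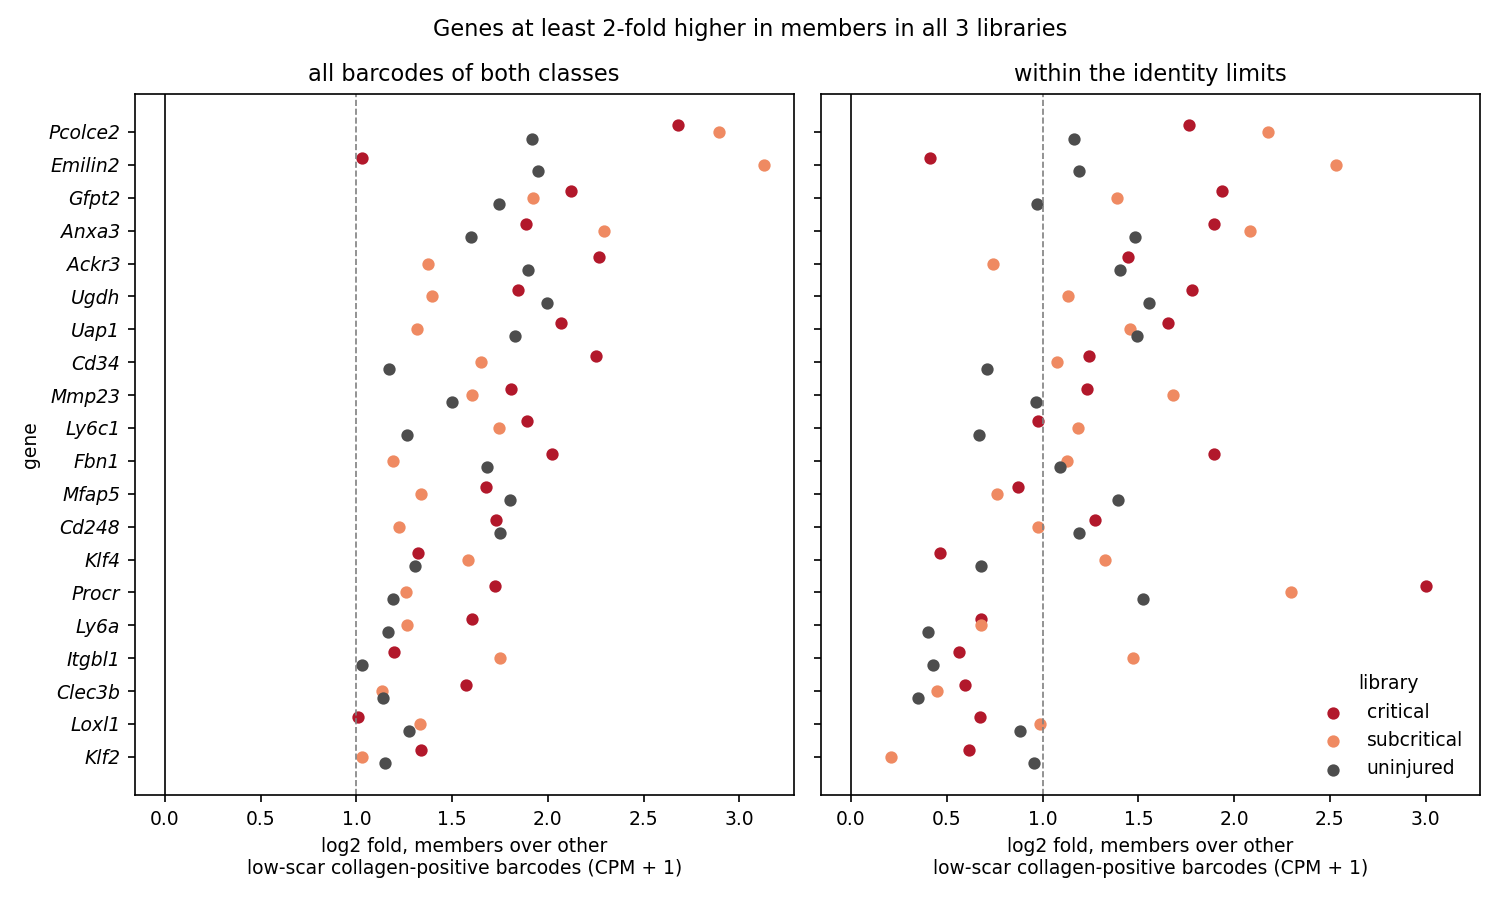
Log2 fold (CPM + 1) of members over the other low-scar collagen-positive barcodes for the 20 genes at least 2-fold higher in all 3 libraries, over all barcodes of both classes (left) and within the identity limits (right); points are libraries and the dashed line marks 2-fold. Within the limits Fbn1, Ugdh, Anxa3, Pcolce2, Uap1 and Procr lay past 2-fold in all 3 libraries, Uap1 and Procr although these 2 had too few UMIs to be measured in every library.

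The barcodes on the other side were not all fibroblasts by transcripts: 181 of 314 critical, 131 of 281 subcritical and 38 of 125 uninjured ones had under 3 UMIs of Pdgfra, Dcn and Lum, and 60, 42 and 33 had over 1 mural UMI. The 32 genes (1.52%) at least 2-fold lower in members in all 3 libraries included Rgs5, Acta2, Myh11 and Notch3 of the mural list. Within the identity limits the contrast was smaller. The universal list then had 7 of 15, 8 of 17 and 13 of 22 measured genes at least 2-fold higher, with medians of 0.98, 0.98 and 1.13, where 4.01%, 3.48% and 3.68% of all measured genes were that high. Of 1150 genes measured in all 3 libraries within the limits, 5 (0.435%) were at least 2-fold higher in each: Fbn1, Ugdh, Anxa3, Pcolce2 and the protease gene Prss23. Cd34 had log2 folds of 1.25, 1.08 and 0.71 there, Ly6a of 0.68, 0.68 and 0.40, and Clec3b of 0.60, 0.45 and 0.35. Without the limits Prss23 was past 2-fold in the injured libraries but stood at -0.01 in the uninjured one.

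As many genes, 5 of 1150 (0.435%), were at least 2-fold lower in members in all 3 libraries within the limits. They were Col15a1, Col18a1, Cxcl14, Apod and Map4k4. Col15a1 and Col18a1 encode collagens of the basement membrane zone, and Cxcl14, Apod and Col15a1 are on the parenchymal list. Within the limits Cxcl14 had log2 folds of -1.22 (-1.63 to -0.83), -3.12 (-3.93 to -2.40) and -2.84 (-3.34 to -2.38) in critical, subcritical and uninjured members. In critical members most Cxcl14 UMIs lay in 1 cell. Apod had -1.96, -1.13 and -2.42. Over all genes measured within the limits, 7.17%, 5.53% and 3.20% were at least 2-fold lower. Within the limits the parenchymal list as a whole had medians of -1.13, -1.01 and -0.36, and the basement membrane list -0.91, -1.08 and -0.49. There 8 of 14, 7 of 14 and 6 of 18 measured parenchymal genes were at least 2-fold lower. Without the limits the medians were -0.05, -0.41 and -0.07 for the parenchymal list and -0.68, -0.51 and -0.28 for the basement membrane list. Of the 5 genes, only Col18a1 was then at least 2-fold lower in every library. Cxcl14 stood at -0.25 in critical, Apod at -0.45 in subcritical and Col15a1 at -0.44 in uninjured members.

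Members also differed among themselves. The marker sum is a value the rule used, so this split is a description and supports nothing. Those with a marker sum of at least 4 (25, 13 and 34 cells in the critical, subcritical and uninjured libraries) were set beside those with a sum of 2 or 3 (17, 29 and 24 cells). Universal genes outside the rule were higher in cells of the higher sum for 11 of 12, 11 of 12 and 21 of 22 measured genes, with medians of 0.49, 0.57 and 1.05. Parenchymal genes were higher in 2 of 5, 0 of 5 and 2 of 17, with sums of -0.08 (-0.21 to 0.06), -0.48 and -0.28. Basement membrane genes went the other way in critical members, where 4 of 4 measured were higher and the sum was 0.91 (0.51 to 1.33); in the subcritical and uninjured libraries it was 0.03 and -0.14. Cells with a higher marker sum had medians of 1484, 1376 and 4653.5 UMIs, against 1193, 1268 and 4251.5 in those with a lower one, so depth moved with the marker sum and its part was not tested.

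The marker-positive barcodes that the scar limit removed were compared with the members in the injured libraries. The universal list was near equal on both sides. It summed to 30507 CPM in critical members and 27245 CPM in the 75 removed critical barcodes, and to 29264 CPM in subcritical members and 29904 CPM in the 58 removed subcritical ones, log2 folds of 0.16 (0.10 to 0.23) and -0.03 (-0.11 to 0.05). Cd248 had 1187 CPM in critical members and 1243.5 CPM in the removed barcodes, and 1214 and 1224.5 CPM in the subcritical library. Mfap5 had 2830 and 3104 CPM, and 2667 and 3010 CPM. Both genes' intervals of the fold included 0 in both libraries. Single genes of the list went both ways, with 12 of 22 measured genes higher in critical and 8 of 20 in subcritical members. Cd34 stood at 0.61 (0.23 to 0.98) in the critical library, and Ly6a at -0.36 (-0.58 to -0.15) in the subcritical one. Igfbp6 was higher in members in both, at 0.29 (0.07 to 0.50) and 0.38 (0.13 to 0.63).

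Further genes set members and removed barcodes apart, Pcolce2 of the universal list among them. Gsn, which encodes the actin-severing and plasma protein gelsolin, had 9841 CPM in critical members and 2285 CPM in the removed barcodes, and 9485 and 3571 CPM in the subcritical library. Pcolce2 had 493 and 146 CPM, and 494 and 159 CPM. Prg4, which encodes the lubricant lubricin, had 1023 CPM in critical members and 153 CPM in the removed barcodes (2.74, 2.20 to 3.29), but 315 and 427 CPM in the subcritical library (-0.44, -1.22 to 0.28). The parenchymal list summed higher in members, by 1.05 (0.97 to 1.14) in the critical library and 0.86 (0.76 to 0.95) in the subcritical one. Gsn is on this list and made up a large part of that difference. The list's medians were 0.35 and 0.42, with 9 of 12 and 10 of 11 measured genes higher in members. Lox, the collagen cross-linking enzyme, was lower in members, with 265 and 418 CPM in the critical library and 239.8 and 638 CPM in the subcritical one, although its critical interval, -1.39 to 0.02, included 0. Also lower was the list of fibrillar collagens and crosslinking enzymes, at -0.44 and -0.37. Over all measured genes, 66 were at least 2-fold higher and 168 lower of 1907 in the critical, and 36 and 55 of 1102 in the subcritical library. Postn, which the limit uses, had 442 and 4347 CPM, and 375 and 3846 CPM, which describes the limit. The genes plotted were chosen after their values were seen.

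**Figure D4:**
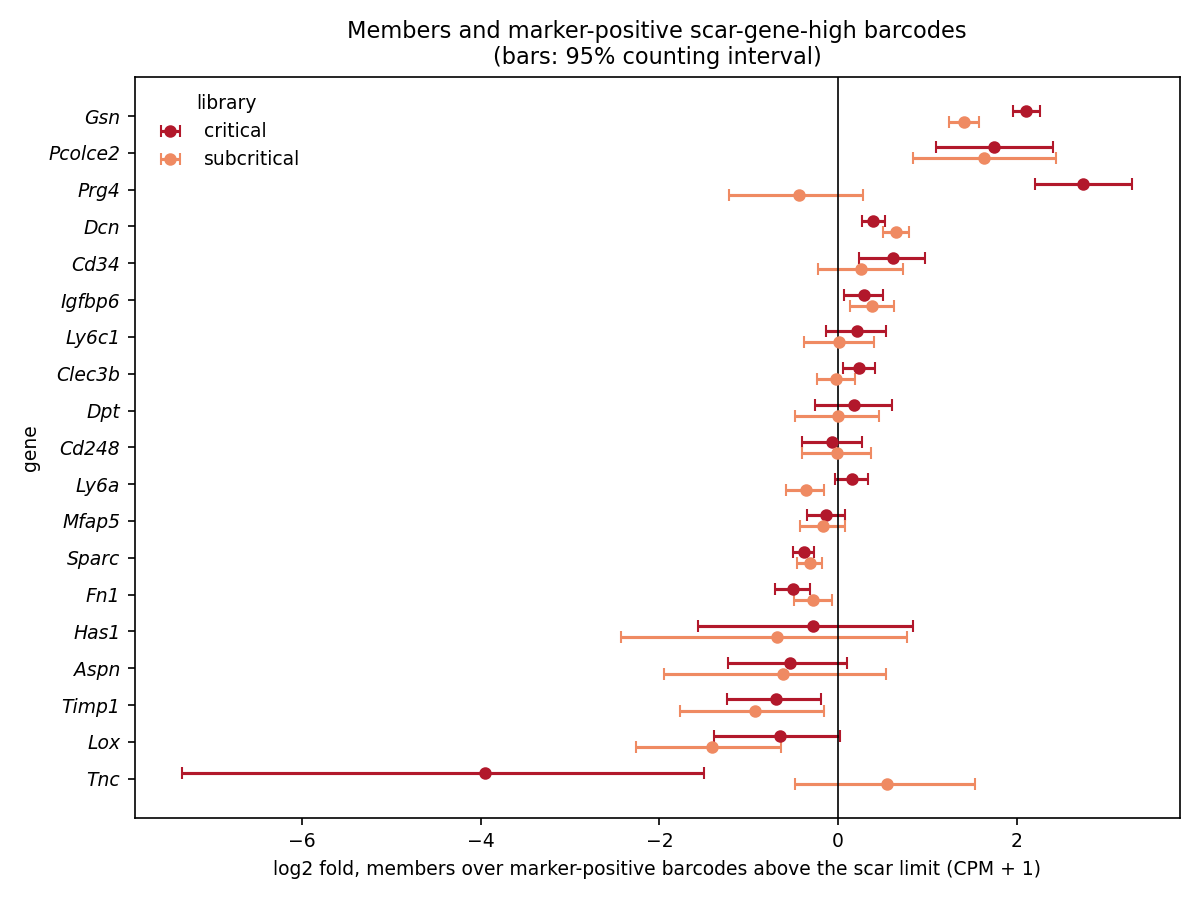
Log2 fold (CPM + 1) of members over the marker-positive barcodes above the scar limit, in the critical library (42 members, 75 removed barcodes) and the subcritical library (42 and 58); points are genes outside the rule and bars 95% counting intervals. Gsn and Pcolce2 were higher in members in both libraries, while Cd248 and Mfap5 lay near 0.

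Between critical and subcritical members few genes stood apart. Of 686 measured genes, 26 (3.79%) were at least 2-fold higher in critical members and 25 (3.64%) at least 2-fold lower, and the median over all was -0.08. The universal list had 8 of 16 genes higher, with sums of 30507 CPM in critical and 29264 CPM in subcritical members. The parenchymal list was as close, with 4 of 8 higher and 23509 and 24409 CPM. The medians of the lists, 0.02 and -0.05, changed sign among the 13 alternatives, so no direction is given for either.

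Protease control and lubrication genes were among the higher ones in critical members. Timp3, which encodes a matrix-bound inhibitor of metalloproteinases, had 619 CPM in critical and 149.8 CPM in subcritical members, a log2 fold of 2.04 (1.04 to 3.18). Prg4 had 1023 CPM in critical and 315 CPM in subcritical members (1.70, 0.99 to 2.46). Adamts5, an aggrecan-cleaving protease gene, had 695 and 285 CPM (1.28, 0.51 to 2.12). C3, the central complement component, had 2236 and 1244 CPM (0.85, 0.46 to 1.24). Timp3 and Adamts5 were higher in critical members in each of the 14 alternative settings tried. Without the scar limit they stood at only 0.61 and 0.17, while Prg4 and C3 turned, at -0.24 and -0.27. In the other low-scar barcodes within the identity limits, the same genes had critical over subcritical log2 folds of 0.65 for Timp3, -0.11 for Prg4, -0.18 for Adamts5 and 0.04 for C3.

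Wnt inhibitors and some secreted factors were lower in critical members. Sfrp2, a secreted Wnt antagonist, had 568 CPM in critical and 1214 CPM in subcritical members (-1.09, -1.65 to -0.55), and its relative Sfrp1 had 215 and 419.6 CPM (-0.96, -1.92 to -0.05). Sfrp2 stood at only -0.22 without the scar limit, and Sfrp1 at -0.06 when members were chosen by Pi16 or Dpp4. All 3 measured Wnt pathway genes were lower, and the list's 22 genes summed to 2009 CPM in critical and 3282 CPM in subcritical members (-0.71, -1.01 to -0.41). The Wnt list had sums of -0.73 in the other low-scar barcodes within the limits and -0.37 in the scar-gene-high barcodes. Gpx3, a secreted glutathione peroxidase gene, had 632 and 1633 CPM (-1.37), but only -0.02 when members were chosen after thinning. Mgp, an inhibitor of calcification, had 2009 and 3926 CPM (-0.97), but it turned to 0.26 when members were chosen by Pi16 or Dpp4. Emilin2, of elastic fibres, had 139 and 389.6 CPM (-1.48, -2.64 to -0.42) on 11 and 26 UMIs. Thbs4, a tendon matrix gene, had 341 and 1079 CPM (-1.66), which turned to 0.65 when members were chosen after thinning.

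Mitochondrial transcripts were higher in critical members, with 5306 CPM against 1933 CPM in subcritical members (1.46, 1.17 to 1.75) and 1238 CPM in uninjured members (2.10, 1.89 to 2.31). They were also higher in the critical than in the subcritical library among other low-scar barcodes (1.27), scar-gene-high barcodes (0.97), endothelial barcodes (0.86) and immune barcodes (0.98). Their part in the differences between members was not tested. mt-Cytb had 568 and 105 CPM and mt-Co1 1326 and 435 CPM in critical and subcritical members. Rps29, a ribosomal gene, was lower in critical members, with 1048 CPM against 2532 CPM in subcritical members (-1.27), and lower by 1.13 and 1.24 in the other 2 fibroblast classes.

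Injured and uninjured members differed more, and both injured groups were set against the same uninjured library. Of 1922 measured genes, 85 (4.42%) were at least 2-fold higher and 212 (11.0%) lower in critical than in uninjured members. Of 1866, 82 (4.39%) were higher and 209 (11.2%) lower in subcritical than in uninjured members. A gene can reach 30 UMIs through the deeper uninjured side alone; with a mean of at least 200 CPM over both sides, 38 were higher and 44 lower of 702 in critical, and 38 and 37 of 713 in subcritical members. Median-of-ratios scaling put the median over all genes at -0.27 rather than -0.15 in critical and at -0.26 rather than -0.09 in subcritical members, and gave 64 higher and 294 lower and 54 higher and 284 lower. Since the uninjured members were both deeper and less often cut by the scar limit, injury and the make-up of the chosen cells cannot be told apart.

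Parenchymal genes stood furthest from uninjured members among the 12 lists plotted. Of 18 measured, 17 were lower in critical members, 9 of them at least 2-fold, and 15 were lower in subcritical members, 10 of them at least 2-fold. The list summed to 23509 CPM in critical members, 24409 CPM in subcritical members and 59042 CPM in uninjured members, log2 folds of -1.33 (-1.40 to -1.26) and -1.27 (-1.35 to -1.20) over the uninjured ones. Its median was below 0 in each of the 13 alternatives in both comparisons, at -0.82 or lower in critical and -0.79 or lower in subcritical members. Gsn made up much of the sum, with 9841, 9485 and 33318 CPM. Within the identity limits its sums were -1.24 and -1.22 in members and -1.24 and -1.25 in the other low-scar barcodes, so the difference was not confined to members.

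Single genes of resident fibroblasts were lower in both injured groups. C7, a terminal complement component, had 25.3 CPM in critical, 179.8 CPM in subcritical and 511 CPM in uninjured members, on 2, 12 and 146 UMIs. Ccl11, the eosinophil attractant eotaxin, had 88.4, 45.0 and 608 CPM, on 7, 3 and 174 UMIs. Ltbp4, which anchors latent TGF-beta to elastic fibres, had 341, 329.7 and 1077 CPM. Inmt, a methyltransferase gene, had 1, 0 and 39 UMIs; against 3 counts over the library it was at least 3.03-fold lower in subcritical members. Tppp3, which is on the universal list, had 227, 404.6 and 846 CPM, and Lama2, the laminin chain of muscle basement membrane, had 75.8, 105 and 294 CPM. The uninjured members were the highest for each of these genes.

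Universal progenitor genes were near equal as a list. They summed to 30507, 29264 and 31741 CPM in critical, subcritical and uninjured members, log2 folds of -0.06 (-0.12 to 0.01) and -0.12 (-0.19 to -0.05) over the uninjured ones. Their medians ran from -0.51 to 0.21 in critical and from -0.52 to 0.29 in subcritical members over the 13 alternatives, so no direction is given. Members of the list went both ways. Fbn1 had 3764, 2622 and 1658 CPM and was 1.18 (0.97 to 1.39) higher in critical than in uninjured members. That fold was only 0.36 when members were chosen after thinning. Ackr3 had 177, 165 and 451 CPM and was lower in both, by 1.35 and 1.45. Igfbp6, a binding protein that favours Igf2, had 2931, 3132 and 5707 CPM. Klf4 had 265, 329.7 and 525 CPM.

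Matrix and crosslinking genes were higher in injured members. The list of fibrillar collagens and crosslinking enzymes, without the collagens of the rule, summed to 13656 CPM in critical, 13875 CPM in subcritical and 10763 CPM in uninjured members, log2 folds of 0.34 (0.24 to 0.44) and 0.37 (0.26 to 0.47). Of 18 measured genes 11 were higher in critical members, and of 16 measured genes 12 were higher in subcritical members. Lox had 265 CPM in critical, 239.8 CPM in subcritical and 35.0 CPM in uninjured members. Col5a1, which sets fibril diameter, had 1554, 1229 and 629 CPM. Mfap2, a microfibril gene, had 404, 509 and 112 CPM, and Eln, elastin, 821, 809 and 227 CPM. Thbs2, a matricellular gene, had 265, 225 and 38.5 CPM. These genes lay on the same side in both injured groups. Lox and Thbs2 had too few UMIs to be measured in subcritical over uninjured members. Eln stood at 1.85 in critical over uninjured members, but at 0.28 when members were chosen after thinning. Whether these matrix genes rose with the scar-gene UMIs that some injured members carried was not tested.

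Serpina3n, a serine protease inhibitor gene of the acute phase, had 455, 315 and 24.5 CPM in critical, subcritical and uninjured members, on 36, 21 and 7 UMIs. Its log2 folds over uninjured members were 4.16 (3.00 to 5.50) and 3.63 (2.37 to 5.03). Complement genes went both ways. C4b had 354, 359.6 and 55.95 CPM in critical, subcritical and uninjured members, C3 had 2236, 1244 and 650.4 CPM, and Cfb, the activator of the alternative pathway, 467, 359.6 and 139.9 CPM. The complement list's medians were 0.02 and 0.01 all the same, and the second of its sums, 0.32 and 0.04, turns with the scaling; C7, on the same list, was lower. Of the interferon list, Ifi27l2a had 1263, 1244 and 217 CPM and Bst2 316, 345 and 80.4 CPM. Only 4 of its 21 genes were measured, 2 of which were higher in critical and 3 in subcritical members, and its median turned to -0.02 in each comparison under 1 setting. The immune list stood beside these genes at 354, 300 and 42.0 CPM, and its part was not tested.

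Growth factor genes were higher in both injured groups. Igf1, a growth factor for muscle stem cells, had 543 CPM in critical, 839 CPM in subcritical and 266 CPM in uninjured members. Igfbp4, one of its binding proteins, had 2893, 3102 and 1007 CPM. The list summed to 9222, 9530.0 and 5829 CPM, with all 6 measured genes higher in critical and 5 of 6 in subcritical members. Its medians stayed above 0 in each of the 13 alternatives in both comparisons, and its sums in members were 0.66 and 0.71, against 0.01 (-0.06 to 0.08) and 0.13 (0.05 to 0.20) in the other low-scar barcodes. Within the identity limits the sums were 0.73 and 0.61 in members, against 0.55 and 0.55 in the others.

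Some genes separated the injured groups in how far they stood from uninjured members. The Wnt list summed to 2009 CPM in critical, 3282 CPM in subcritical and 2091 CPM in uninjured members. All 6 measured genes were higher in subcritical members. Sfrp1 had 419.6 CPM there against 42.0 CPM in uninjured members, on 28 and 12 UMIs. Dkk2, another Wnt antagonist gene, had 315 and 42.0 CPM. In subcritical over uninjured members Sfrp1 stood at 3.29 and Dkk2 at 2.88, but at 1.51 and 0.68 when members were chosen after thinning. The tendon list summed to 1415, 2532 and 619 CPM, with Comp at 505, 914 and 139.9 CPM. In the other low-scar barcodes the tendon list's critical over subcritical sum was also below 0, at -0.51, and at -0.50 within the identity limits. When members were chosen after thinning, Comp turned to 0.42 and the tendon list's median to 0.54 in critical over subcritical members, and the median in subcritical over uninjured members was 0.27 in place of 2.26. Prg4 had 1023, 315 and 1196 CPM and Timp3 619, 149.8 and 472 CPM, lowest in subcritical members for both. For Prg4 this did not hold throughout: subcritical over uninjured members gave 0.18 after thinning, and critical over subcritical members -0.24 without the scar limit. The difference between the 2 injured groups' folds was not tested.

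**Figure D5:**
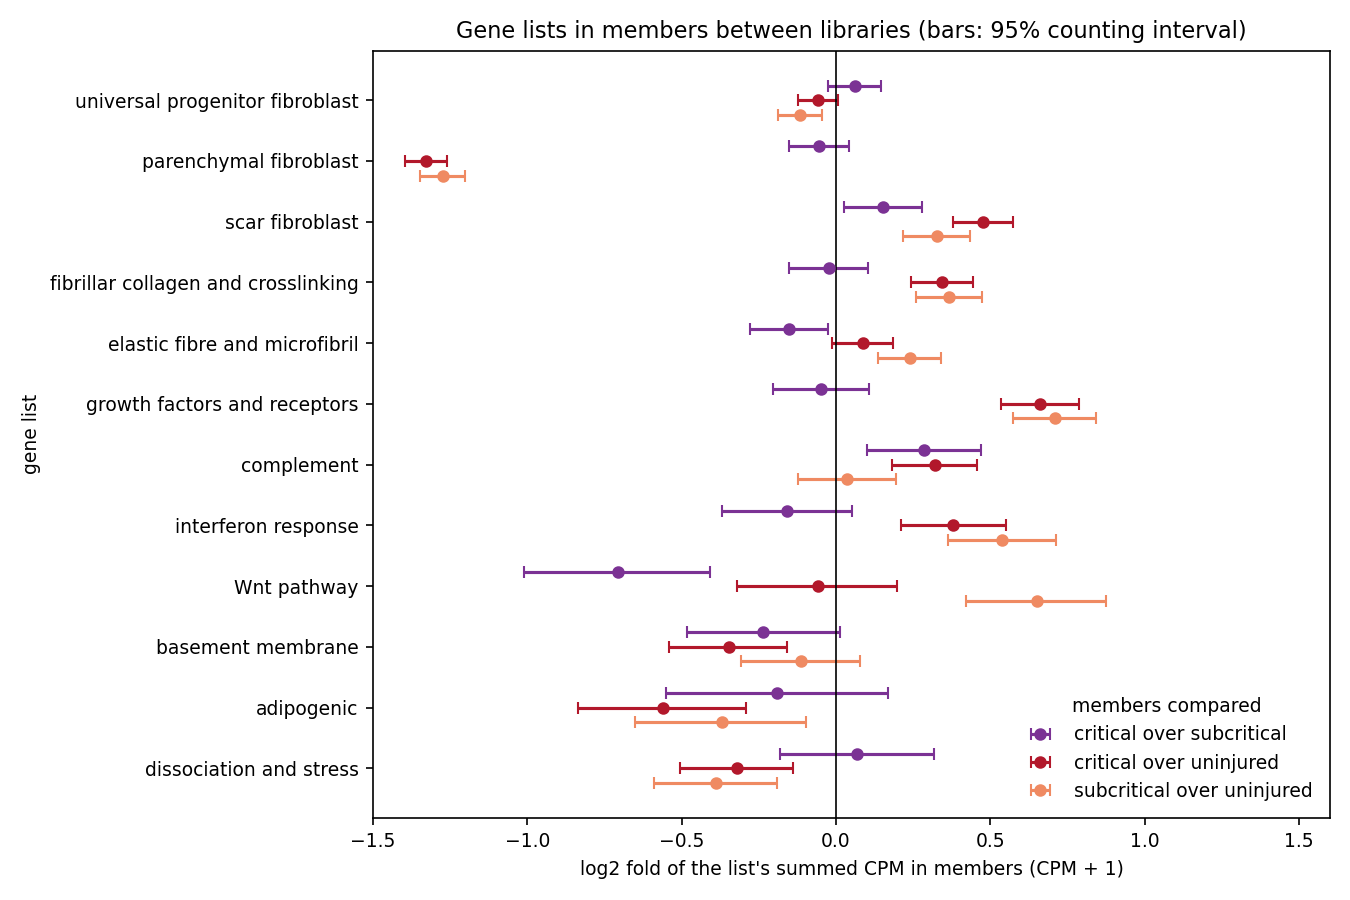
Log2 fold of each list's summed CPM in members for critical over subcritical, critical over uninjured and subcritical over uninjured; bars are 95% counting intervals. The parenchymal list lies at -1.33 and -1.27 against uninjured members and at -0.05 between the injured groups, and the universal list within 0.12 of 0 in all 3.

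Surface antibodies were counted in the same barcodes and were not used by the rule. An antibody is read through the DNA tag it carries, and the tags of those the description turns on are shown, in capitals throughout.
CD55: ATTGTTGTCAGACCA
Ly-6A/E: TTCCTTTCCTACGCA
CD140a: GTCATTGCGGTCCTA
CD34: AAACTCAGGTCCTTC
IgG2a isotype: CTCCTACCTAAACTG
Members carried few of them. Ly-6A/E, the Sca-1 protein, had 0.45, 1 and 0.74 UMIs per critical, subcritical and uninjured member, against 0.31, 0.55 and 0.60 in the other low-scar barcodes. The IgG2a isotype control had 0.14, 0.29 and 0.12 UMIs per member. CD55 had 0.12, 0.12 and 0.069 UMIs per member, no more than that control. CD140a, the protein of Pdgfra, had 0.76, 0.79 and 0.28 UMIs per member (0.59 in critical members without 1 antibody aggregate), less than on the endothelial barcodes of the same libraries, at 2.23, 2.47 and 2.65, which should lack it. CD34 had 16.2, 0.64 and 0.47 UMIs per member, but 676 of the 680 UMIs in critical members were in 1 barcode; without that aggregate the value was 0.098, equal to the isotype control without it. Sca-1 was above the other low-scar barcodes in each library, but the intervals lay apart in the subcritical library alone, at 0.72 to 1.35 in members and 0.46 to 0.64 in the others. Antibodies to CD26, the Dpp4 protein, were not analysed here.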

How the data were processed

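Cells of 4 animals per group were run as 1 5' library with antibody tags. Matrices were made with cellranger 6.0.2 per the file headers, on GRCm39 per the submitters' processing notes. The deposited values are raw UMI counts per gene and barcode, and were not normalized by the authors. Members were chosen by the rule on these counts, no doublet caller was run, and the 5% of barcodes with most UMIs were left out as an alternative. Counts were summed per library and class and scaled to CPM; genes of at least 30 UMIs in 10 cells were measured, with a pseudocount of 1 CPM. Intervals are exact binomial or Poisson and cover counting error only. The libraries shared 10 to 16 barcodes pairwise. With 1 library per group no p-value was computed. Only the fold and its interval were tested on simulated counts, which held counting error alone and so cannot show the spread between cells. Named genes are the markers, the 12 highest and 12 lowest per comparison and up to 4 per list; others named were chosen after their values were seen. Members and lists were chosen with earlier results of these data known. Python 3.11.15, numpy 2.4.6, scipy 1.17.1 and pandas 2.3.3 were used. Some single-gene values are not reported here.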

Additional observations from a re-analysis of the deposited data

How the results depend on the processing

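No paired analysis was possible because each group was 1 pooled library, and no replicate could be left out; counting depth, at 42, 42 and 58 members, limits every value. Shares that an alternative moved beyond their counting interval, counts it changed by over 1.5 times and some values that changed sign are given here. Other gene folds and list medians also moved, 53 and 77 of them after thinning, and are not all given. The cause was not tested except where the setting itself removes cells, UMIs or genes. The settings with identity limits, thinned counts, a mean of 200 CPM, no highest cell and no antibody aggregates were added after seeing the data.

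Members were 0.823% of all barcodes in the critical library and 0.965% in the subcritical one with at most 1 scar UMI, 3.70% and 3.45% without the scar limit, 1.83% in the critical and 1.17% in the uninjured library after thinning (of barcodes with at least 1000 UMIs), and 0.827% in the subcritical and 1.91% in the uninjured library with at least 3 marker UMIs. Of collagen-positive barcodes they were 2.70% and 3.58% in the critical and subcritical libraries with at most 1 scar UMI, 12.1% and 12.8% without the limit, 5.89% in the critical and 39.6% in the uninjured library within the identity limits, 3.07% in the subcritical and 22.0% in the uninjured library with at least 3 marker UMIs, and 14.8% in the uninjured library after thinning.

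Counts of genes at least 2-fold higher and lower changed as follows. Critical over subcritical members gave 16 and 13 with at most 1 scar UMI, 77 and 40 without the limit, 2860 and 2666 with no filter, 13 lower with at least 3 marker UMIs and 38 lower with cell means. Critical over uninjured members gave 193 higher without the limit, 52 and 82 after thinning, 1982 and 4284 with no filter, 38 and 44 at a mean of 200 CPM, and 127 lower without the top 5% of barcodes. Subcritical over uninjured members gave 131 higher without the limit, 33 and 67 after thinning, 1842 and 4580 with no filter, 54 higher by median-of-ratios, 38 and 37 at 200 CPM, and 109 lower without the top 5%. Members over other low-scar barcodes gave, in the critical library, 248 and 782 without the limit, 239 and 749 after thinning, 57 and 102 within the identity limits, 1481 and 6233 with no filter, 84 higher by median-of-ratios, and 54 and 31 at 200 CPM. In the subcritical library they gave 212 and 694, 173 and 526, 44 and 70, 1700 and 5761, 45 and 388, and 43 and 23 under the same settings. In the uninjured library they gave 1552 and 3741 with no filter, 32 and 40 at 200 CPM, and 86 lower within the identity limits.

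Some single values changed sign. Between critical and subcritical members, Prg4 was -0.24 and Cxcl14 -0.72 without the scar limit, and Cxcl14 was -0.46 without the highest cell of each side. Thbs4 was 0.21 without the limit, 0.14 with at most 1 scar UMI and 0.65 after thinning. In subcritical over uninjured members the interferon median was -0.016 with no filter and Prg4 was 0.18 after thinning. In members over other barcodes, Apod was 0.033 without the limit in the critical library and Procr -0.19 with at least 3 marker UMIs in the subcritical library. In the uninjured library the immune median was 0.067 with Pi16 or Dpp4 as the marker clause, and after thinning Klf2 was -0.015, Mmp23 -0.50 and Itgbl1 -0.42.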
